A study of Arabidopsis thaliana with 8 samples.

Results

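The nuclear photosynthesis genes are 44 loci of the 27444 nuclear protein-coding genes of Arabidopsis thaliana, chosen by locus for what their proteins do and not by any measured value. They comprised 14 genes of the photosystem II antenna (LHCB), 6 of the photosystem I antenna (LHCA), 4 of the Rubisco small subunit (RBCS), 12 of photosystem I subunits (PSA) and 8 of photosystem II subunits (PSB). All 44 were found in the annotation, 18 of them on chromosome 1. The nucleosomes of a gene were those with a center between 500 bp upstream of its start and 300 bp past its end.

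Positions came from micrococcal nuclease (MNase) sequencing, in which the enzyme removes the DNA between nucleosomes and the protected fragments are sequenced. The plants were of the Landsberg erecta background and carried 35S:LFY-GR, the transcription factor LEAFY fused to a steroid receptor domain that keeps it out of the nucleus until dexamethasone (dex) is given. Roots of 3-week-old seedlings were kept for up to 5 days on a medium that induces callus and then compared in 4 groups: dex for 1 h with a low digest, mock for 1 h with a low digest, dex with the standard (high) digest and mock with the high digest. The mock explants carried the transgene too, and its 35S promoter is active in most tissues, so that these samples show no native pattern of LEAFY. Each group had 2 libraries and is represented by 1 list of called nucleosomes. There is therefore no replicate error for any value here, and no difference between lists carries a test. The tissue label could not be checked against marker genes, because the lists hold positions and no expression.

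The lists held 242336 nucleosomes for low digest dex, 316733 for low digest mock, 376240 for the list labelled high digest dex and 482098 for high digest mock, covering 27.9%, 36.1%, 42.7% and 54.4% of the nuclear bases. Inside the list labelled high digest dex, each line carries a name that points to a low digest library with dex. The paper's count of called nucleosomes for the high digest with dex is close to the length of this list. Its count for the low digest with dex is far lower. The label was followed, and every statement on that list rests on it. Occupancy, the height of a nucleosome's summit, took only whole multiples of 8 for low digest dex (100% of its values), against 0% in the other lists. Coverage follows list length. For low digest dex the list used here is longer than the count in the paper, whereas the other lists are slightly shorter than theirs. The reason is not stated. For low digest dex alone the paper states that replicates were pooled before calling. The number of reads behind a list is unknown, so the effects of a longer list, of that pooling and of a treatment cannot be told apart.

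Photosynthesis begins when chlorophyll bound to light-harvesting proteins passes its energy to photosystem II, which takes electrons from water, and photosystem I, which raises them to the level needed to reduce ferredoxin. The core reaction-center proteins are encoded in the chloroplast, whereas the antenna proteins, many smaller subunits and the small subunit of Rubisco, the enzyme that fixes carbon dioxide, are encoded in the nucleus. These nuclear genes are strongly induced by light in leaves and are little used in roots. Their promoters are known for G-box and I-box elements, and GLK1, GLK2 and HY5 are among their regulators. Several of them stand as near-identical tandem copies, which matters for any assay that keeps only reads with a single best position.

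The sequence upstream of the start differed widely between genes in how much of it the lists covered. Of the 29 genes whose 200 bp upstream overlap no other annotated protein-coding gene, 6 had no base there covered in at least 3 of the 4 lists. The 2 most covered by that count and the 2 least covered over all lists among genes with a single annotated transcript start are shown, 5′ to 3′ up to the base before the start, from the RefSeq sequence of TAIR10.1. Capitals mark bases covered in at least 3 lists.
PSAK (chr1:10721983-10722182, plus strand): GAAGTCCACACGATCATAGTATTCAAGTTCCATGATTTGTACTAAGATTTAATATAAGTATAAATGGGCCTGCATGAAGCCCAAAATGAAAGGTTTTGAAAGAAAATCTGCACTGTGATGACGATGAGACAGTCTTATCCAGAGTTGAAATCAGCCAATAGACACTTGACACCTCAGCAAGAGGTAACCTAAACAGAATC
CAB1 (chr1:10477685-10477884, plus strand): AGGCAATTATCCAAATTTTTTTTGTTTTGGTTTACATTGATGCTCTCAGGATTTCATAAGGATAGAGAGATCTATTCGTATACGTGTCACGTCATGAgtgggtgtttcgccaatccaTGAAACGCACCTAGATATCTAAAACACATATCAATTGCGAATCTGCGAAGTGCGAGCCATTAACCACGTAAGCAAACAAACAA
PSAF (chr1:11216142-11216341, minus strand): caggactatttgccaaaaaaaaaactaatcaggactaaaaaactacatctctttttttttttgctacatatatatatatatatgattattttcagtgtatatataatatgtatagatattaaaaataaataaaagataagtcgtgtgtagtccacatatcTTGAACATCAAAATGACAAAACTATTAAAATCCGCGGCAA
PSBY (chr1:25395250-25395449, minus strand): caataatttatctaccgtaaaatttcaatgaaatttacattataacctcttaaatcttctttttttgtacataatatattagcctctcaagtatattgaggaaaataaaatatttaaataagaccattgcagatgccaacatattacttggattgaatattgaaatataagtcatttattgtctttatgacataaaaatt
PSAK (AT1G30380), a photosystem I subunit beside the antenna, had all 200 bases in capitals, and CAB1 (AT1G29930), which encodes an Lhcb1 protein of the main light-harvesting complex, had 180. PSAF (AT1G31330), the subunit at which plastocyanin docks, had 40 and PSBY (AT1G67740), a small photosystem II protein, had 0. The GC content was 38% in the PSAK stretch and 38.5% in the CAB1 stretch, against 24.5% for PSAF and 22.5% for PSBY. The I-box letters GATAAG were centered 65 bp before the PSAK start, covered in all lists but high digest mock, and 63 bp before the PSAF start, covered in none.

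Coverage near the start was higher than over all protein-coding genes, with the widest gaps in both low digest lists and the list labelled high digest dex. The start itself lay inside a listed nucleosome for 20 of 44 genes in low digest dex (45.5%, Wilson 95% interval 31.7 to 59.9), 24 in low digest mock (54.5%, 40.1 to 68.3), 24 in the list labelled high digest dex and 24 for high digest mock. Among all protein-coding genes the start was covered for 27.3%, 32.7%, 32.8% and 40.1% in these 4 lists. Among genes of like length, meaning within 10% of a gene's length, the mean was 27.0%, 32.5%, 34.3% and 43.9%, and with a like promoter GC content as well it was 27.7%, 34.3%, 36.5% and 44.7%. The intervals cover counting error over genes only and give no test, since genes share libraries and some are tandem copies. In high digest mock those backgrounds lay inside the interval, with 40.1% at its very edge. In the other lists they lay below it. Further, 11 genes had the start covered in all 4 lists and 11 in none, or 25% each, against 9.75% and 38.8% of all genes.

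The 11 genes with a start covered in all lists were LHCB2.1 (AT2G05100), LHCB4.3 (AT2G40100) and LHCB6 (AT1G15820) of the photosystem II antenna, PSAE-1 (AT4G28750), PSAE-2 (AT2G20260), PSAF, PSAH2 (AT1G52230) and PSAN (AT5G64040) of photosystem I, and PSBO1 (AT5G66570), PSBR (AT1G79040) and PSBX (AT2G06520) of photosystem II. No LHCA or RBCS gene was among them. The 11 covered in none were CAB2 (AT1G29920), LHB1B2 (AT2G34420), LHCB3 (AT5G54270) and LHCB4.1 (AT5G01530), then Lhca5 (AT1G45474), PSAL (AT4G12800) and PSAO (AT1G08380), and PSBO2 (AT3G50820), PSBP-1 (AT1G06680), NPQ4 (AT1G44575) and PSBY. The picture depends on the annotation, since 13 of the 44 genes have more than 1 transcript start and the outermost was used. With the innermost start, an alternative chosen after seeing the data, 22, 30, 27 and 28 genes were covered in the 4 lists, against 27.2%, 34.3%, 36.2% and 43.7% of all genes.

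**Figure D1:**
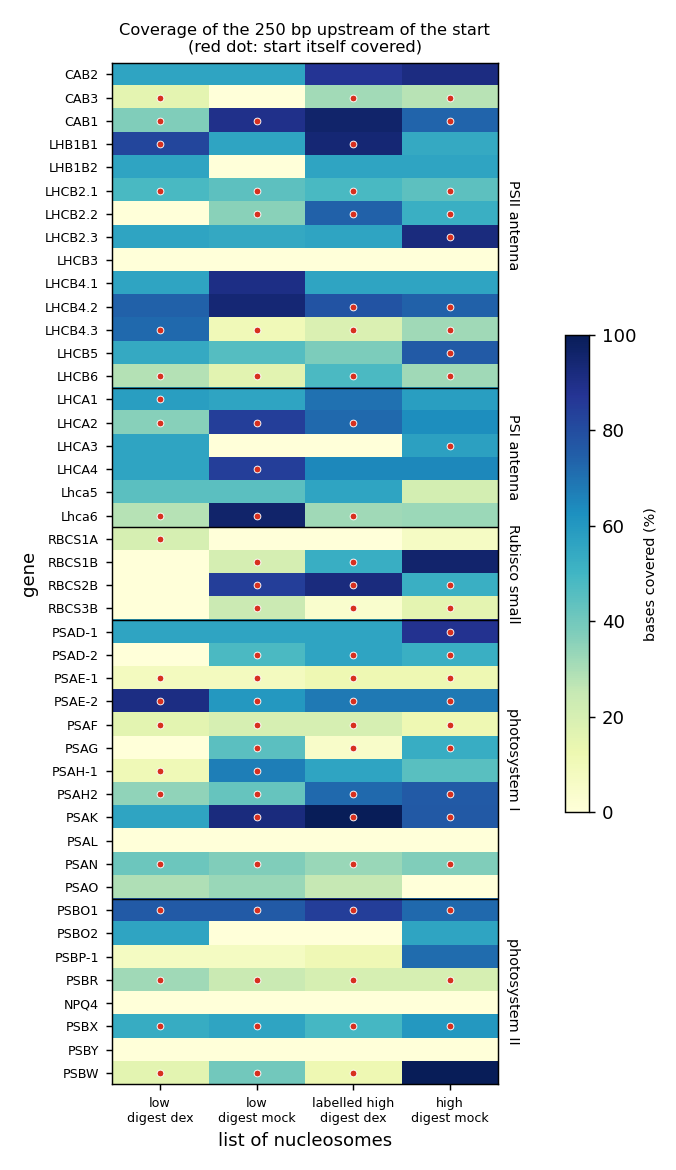
Share of the 250 bp upstream of each of the 44 gene starts covered by listed nucleosomes, in % (color), by list; a red dot marks a start that is itself covered. PSBY, NPQ4, LHCB3 and PSAL are pale in every list, while PSAK, CAB1 and PSBO1 are dark in at least 3, and dots are present in all 4 columns for 11 genes.

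The 250 bp before the start gave the same difference. The median over the 44 genes was 35.2% of bases covered in low digest dex, 43.4% in low digest mock, 48.8% in the list labelled high digest dex and 53.4% for high digest mock, against 6%, 12%, 17.2% and 44.8% over all genes. The number above the median of genes of like length was 32, 32, 30 and 26 of 44. The share of all genes above that median was 49.2%, 49.6%, 49.8% and 49.8%. At full list length the gap was thus seen in 3 lists and was small in the longest one. There the median difference from genes of like length was 5 percentage points, against 30.2, 31.3 and 30 in the others. With each list reduced to the 242336 nucleosomes of highest occupancy, starts were covered for 45.5%, 47.7%, 27.3% and 22.7% of the 44 genes, against 27.3%, 24.8%, 11.9% and 11.9% of all genes. The medians for the 250 bp were then 35.2%, 34.4%, 1.8% and 10%, against 6%, 0%, 0% and 0% over all genes. The size of the gap in the list labelled high digest dex thus depended on list length.

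Over the longer promoter of 500 bp the difference was smaller. Medians were 28%, 34.8%, 40.8% and 56% for the 44 genes and 27%, 28%, 28% and 48% for all genes. The numbers above like-length genes were 25, 24, 26 and 24 of 44, beside 39.6%, 39.7%, 42.6% and 49.7% of all genes, and the median differences were 5.35, 6.8, 12.8 and 6 percentage points. By family, LHCA genes were above in 4, 5, 5 and 4 of 6 cases and PSA genes in 7, 9, 7 and 7 of 12. Of the RBCS promoters 1 of 4 was above in each list, but 3 of these genes have a second start further in, from which values were mostly higher. From the innermost start RBCS1A (AT1G67090) had 60%, 28%, 23.4% and 46% of the 500 bp covered in the 4 lists, against 39%, 15.2%, 13.2% and 39.2% from the outermost, and RBCS1B (AT5G38430) had 4.8%, 24.8%, 28% and 56%, against 0%, 10.2%, 26.2% and 56%. The median difference from genes of like length also depended on the window, the interval and the genes compared. It was 0.95, 9.35, 4.13 and 1 points over 1000 bp, 1.95, 2.8, 9 and 1.3 points with intervals of 100 bp, and 6.1, 9, 5 and 3.85 points against genes of like length and GC content.

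LHCB4.2 (AT3G08940), which encodes a form of the minor antenna protein CP29, had the most covered promoter: 56% in low digest dex and 97% in low digest mock, then 78% in the list labelled high digest dex and 72% for high digest mock. PSAE-2, a stromal photosystem I subunit near the ferredoxin site, had 73.8%, 72%, 68% and 76% in the same order. PSBX, a small photosystem II subunit, had 68%, 76%, 58% and 78%. Lhca6 (AT1G19150), a low-abundance antenna protein that helps join photosystem I to the NDH complex, had 56%, 91.6%, 59.6% and 56%. All of these were above the like-length median in every list.

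At the other end, the promoters of NPQ4 and PSBY were covered at 0% in all 4 lists, as were those of 8.29% of all genes. NPQ4 encodes PsbS, which triggers the dissipation of excess light as heat. Its annotated transcript starts span 1475 bp, and from the innermost start its upstream 500 bp were covered at 0% in low digest dex and 18.8% in low digest mock, and at 8.8% in both high digest lists. RBCS3B (AT5G38410) had 0% and 11.8% in the low digest dex and mock lists and 1.8% and 7.8% in the high digest ones. From its innermost start, 226 bp further in, the values for RBCS3B were 0%, 43%, 47% and 52%, so that its place among the lowest rests on the start used. CAB3 (AT1G29910) had 7.8% and 0%, then 15.8% and 13.8%. None of these 4 promoters holds a 31-base word found elsewhere in the genome, while such words make up 10.99% to 25.1% of the bodies of NPQ4, RBCS3B and CAB3. The part of repeats in the low promoter values was not tested.

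GC content moved with promoter coverage. The Spearman correlation between the GC content of the 250 bp upstream and its coverage was 0.42, 0.63, 0.61 and 0.49 across the 44 genes in the 4 lists, and 0.53, 0.65, 0.65 and 0.50 across all 27444 genes. These are descriptions, since genes share libraries and neighbors. The median GC content was 33.8% for the 44 genes and 31.2% for all genes. Its part in the higher coverage of the 250 bp was not tested. The comparison with genes of like length and like promoter GC, given above, matched GC over 500 bp and read the start base alone. It therefore does not answer that question.

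Inside the gene the coverage was high near 200 bp past the start, but not near 120 bp. The highest share of the 44 genes covered at any base from 0 to 300 bp past the start was 63.6% at 250 bp in low digest dex, 77.3% at 220 bp in low digest mock, 86.4% at 230 bp in the list labelled high digest dex and 81.8% at 220 bp for high digest mock. For 19074 genes of the same length range the maxima were 37.1%, 53.7%, 64.3% and 72.7%, at 270 to 300 bp. A maximum over few genes is noisier and so higher than one over many. At a fixed 200 bp past the start the shares were 52.3%, 70.5%, 77.3% and 75%, against 35.3%, 51.7%, 61.8% and 68.3%. At 120 bp the shares were 31.8%, 45.5%, 59.1% and 61.4%, against 34.7%, 49.3%, 58.0% and 66.9%, so that the 44 genes were lower in 3 of the 4 lists. At 300 bp high digest mock covered 59.1% of the 44 genes, against 72.6% of the genes of that length range.

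**Figure D2:**
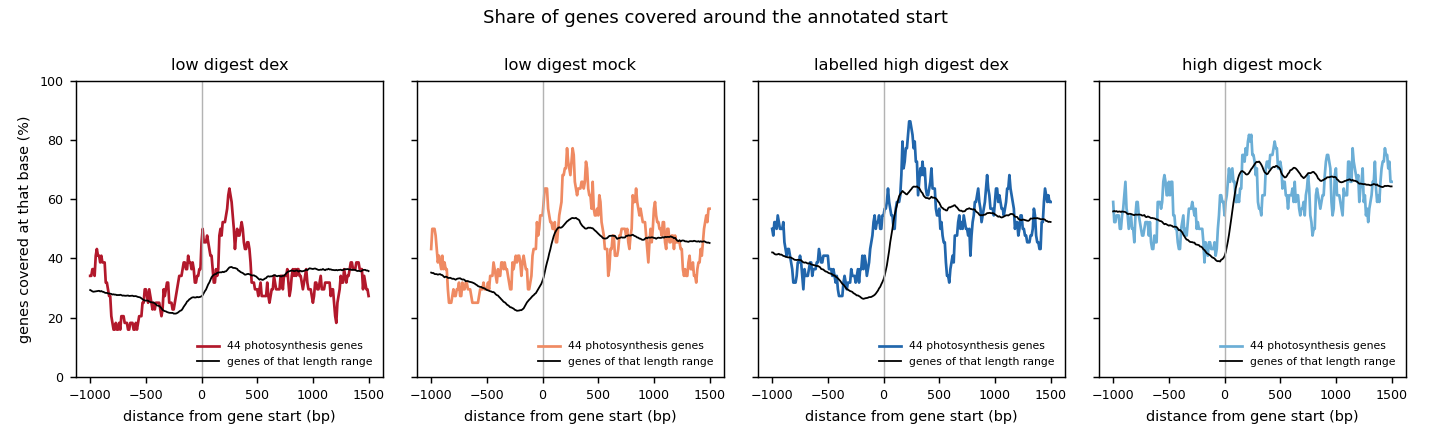
Share of genes covered by a listed nucleosome (%) at each distance from the annotated start (bp), 1 panel per list; colored lines are the 44 photosynthesis genes and black lines 19074 genes of the same length range. In every panel the colored line is above the black one from the start to 50 bp and again near 200 bp. The gap at 200 bp is smallest in high digest mock. The colored lines peak at 63.6% to 86.4%.

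Across the whole body, in contrast, the 44 genes did not stand apart as a group. Median body coverage was 36.3% in low digest dex, 53.3% in low digest mock, 57.8% in the list labelled high digest dex and 68.8% for high digest mock, against 37.8%, 50.7%, 59.5% and 70.9% for all genes. The number above the median of like-length genes was 21, 26, 22 and 21 of 44, against 50%, 50%, 49.9% and 50% of all genes. The median differences from like-length genes were -0.25, 3.57, 0.18 and -1.42 percentage points. The genes were shorter than others (median 1386 bp, against 2078 bp) and richer in GC (41.6%, against 38.9%). Against genes of like length and GC content the differences were -2.57, -1.12, -3.90 and -3.18 points, with the sign turned in low digest mock and in the list labelled high digest dex.

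**Figure D3:**
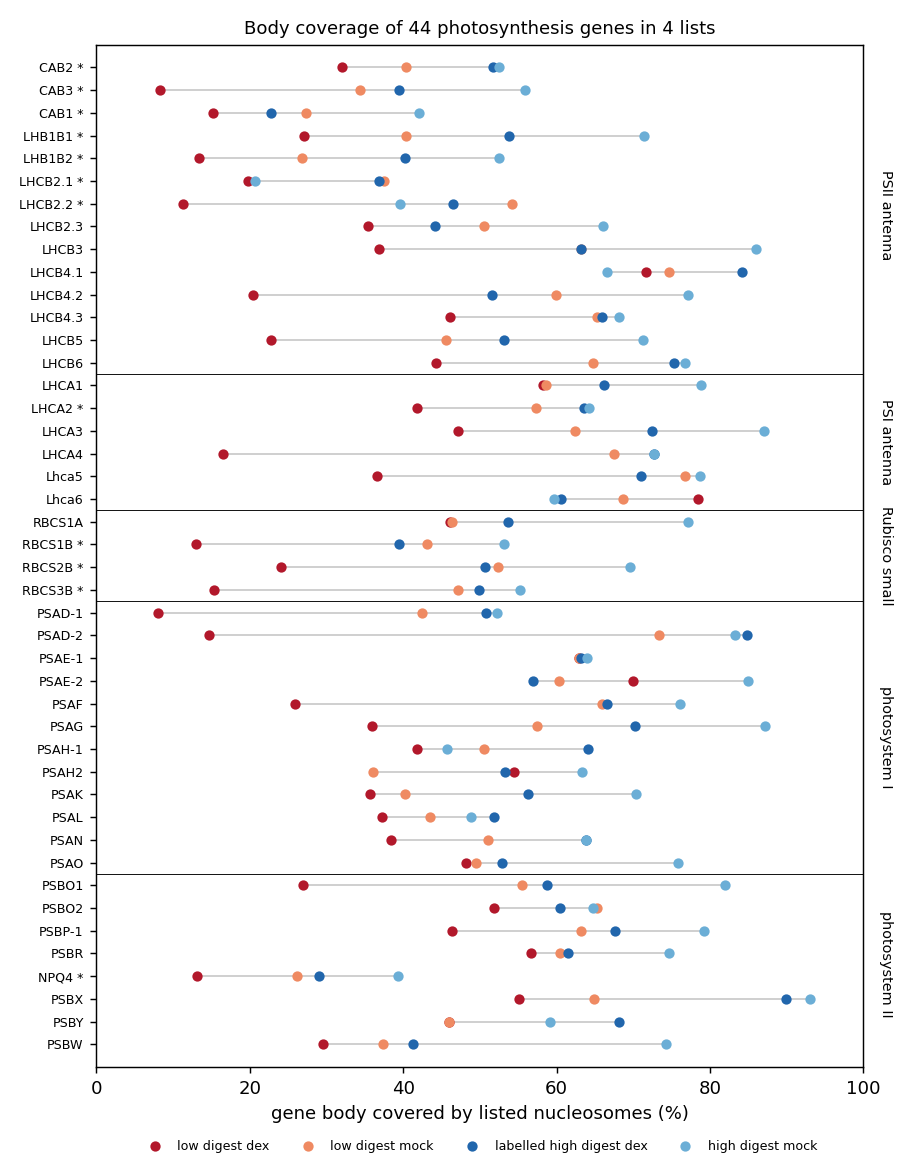
Share of the gene body covered by listed nucleosomes (%) for each of the 44 genes, with 1 point per list joined by a gray line; a star marks the 12 genes with over 10% repeated 31-base words. Low digest dex is the lowest point for most genes, and many of the starred genes lie to the left, with exceptions such as LHB1B1.

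The families differed. Of 14 LHCB genes, 3, 7, 4 and 5 were above their like-length median in the 4 lists, and of 4 RBCS genes 1, 1, 0 and 1. LHCA genes were above in 4, 6, 6 and 4 of 6 cases, PSA genes in 8, 7, 7 and 6 of 12, and PSB genes in 5 of 8 in every list. The family medians in low digest mock were 48.0% for LHCB, 65.0% for LHCA, 46.8% for RBCS, 50.8% for PSA and 58.0% for PSB.

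The gene with the most covered body was PSBX, at 55.1% in low digest dex and 64.9% in low digest mock, and at 89.9% in the list labelled high digest dex and 93.1% for high digest mock. Its window held 7 nucleosomes in low digest dex and 6 in low digest mock, then 8 in the list labelled high digest dex and 10 for high digest mock. LHCB4.1, the other main CP29 gene, was covered at 71.7%, 74.7%, 84.2% and 66.5%, and was at the 99.5th percentile of like-length genes in both dex lists. PSAE-2 had 70.0%, 60.3%, 56.9% and 84.9%. LHCA3 (AT1G61520), an antenna protein of photosystem I, had 47.1%, 62.4%, 72.4% and 87.0%. In these genes low digest dex was not always the lowest list, as LHCB4.1 was lowest in high digest mock and PSAE-2 in the list labelled high digest dex.

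The PSBX nucleosomes show how far positions held between lists. A nucleosome near the start was centered at -64 bp in low digest dex, -24 bp in low digest mock, -54 bp in the list labelled high digest dex and -34 bp in high digest mock. The next one was centered at 46 bp past the start in both dex lists and at 156 bp in both mock lists. In low digest mock the nucleosome at -24 bp of PSBX was at percentile 97.7 of occupancy in its list, while the one at -34 bp in high digest mock was at percentile 16.2.

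The least covered bodies were those of CAB1, NPQ4, LHCB2.1 and LHB1B2. CAB1 had 15.2% in low digest dex and 27.4% in low digest mock, then 22.8% in the list labelled high digest dex and 42.0% for high digest mock, although its upstream region was among the most covered. NPQ4 had 13.1%, 26.2%, 29.0% and 39.3%. LHCB2.1, one of the Lhcb2 genes of the main antenna, had 19.7%, 37.5%, 36.8% and 20.7%. LHB1B2, an Lhcb1 gene, had 13.4%, 26.8%, 40.2% and 52.4%. In CAB1 no list had a nucleosome centered between 257 bp and 967 bp past the start, a stretch that spans most of the coding sequence.

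All of these genes carry repeated sequence. A 31-base word that occurs more than once in the genome made up over 10% of the body in 12 of the 44 genes, namely CAB1, CAB2, CAB3, LHB1B1 (AT2G34430), LHB1B2, LHCB2.1, LHCB2.2 (AT2G05070), LHCA2 (AT3G61470), RBCS1B, RBCS2B (AT5G38420), RBCS3B and NPQ4. Within the Lhcb1 tandem group on chromosome 1, coding sequences were 95.6% to 96.4% identical, and the pair on chromosome 2 was 92.5% identical. The RBCS genes of the chromosome 5 cluster were 96.7% to 97.3% identical to each other and 90.4% to 90.6% to RBCS1A, which stands alone on chromosome 1. The first 150 coding bases of the 5 Lhcb1 genes, which begin with the transit peptide, are shown because they let the copies be told apart. Capitals mark bases inside a 31-base word found elsewhere in the genome.
CAB1 (chr1:10478071-10478220, plus strand): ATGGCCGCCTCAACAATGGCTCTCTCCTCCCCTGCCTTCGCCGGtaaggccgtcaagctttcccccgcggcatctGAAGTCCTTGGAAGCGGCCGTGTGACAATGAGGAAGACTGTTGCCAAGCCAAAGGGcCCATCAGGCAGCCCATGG
CAB2 (chr1:10475743-10475892, minus strand): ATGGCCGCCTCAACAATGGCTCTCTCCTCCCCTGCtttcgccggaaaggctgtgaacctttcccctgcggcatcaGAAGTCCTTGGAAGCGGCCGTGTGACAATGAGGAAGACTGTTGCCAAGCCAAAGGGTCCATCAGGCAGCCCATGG
CAB3 (chr1:10473097-10473246, minus strand): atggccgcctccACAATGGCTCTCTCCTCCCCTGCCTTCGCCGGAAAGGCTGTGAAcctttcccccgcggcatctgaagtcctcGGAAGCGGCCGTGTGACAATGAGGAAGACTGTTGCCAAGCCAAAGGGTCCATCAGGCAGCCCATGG
LHB1B1 (chr2:14524818-14524967, plus strand): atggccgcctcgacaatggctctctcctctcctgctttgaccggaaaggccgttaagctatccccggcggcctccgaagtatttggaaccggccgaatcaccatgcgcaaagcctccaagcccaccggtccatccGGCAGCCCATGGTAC
LHB1B2 (chr2:14523364-14523513, minus strand): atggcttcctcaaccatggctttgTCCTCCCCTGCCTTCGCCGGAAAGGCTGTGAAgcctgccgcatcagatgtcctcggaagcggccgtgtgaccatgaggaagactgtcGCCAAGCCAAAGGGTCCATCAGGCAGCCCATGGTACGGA
CAB1 had 118 of 150 bases in capitals, CAB2 and CAB3 had 110 each, LHB1B2 had 71 and LHB1B1 had 15. Bases in lower case lie in no 31-base word that is shared with another place.

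Coverage was lower in the genes with repeats. The 12 such genes had median body coverage of 15.3%, 40.4%, 43.3% and 52.8% in the 4 lists, against 43.1%, 60.2%, 63.2% and 74.5% in the other 32. Only 1, 3, 1 and 1 of the 12 were above their like-length median, against 20, 23, 21 and 20 of the 32. For the 32 alone the median difference from like-length genes was 6.13, 10.8, 5.46 and 5.13 percentage points. Across the 44 genes the Spearman correlation of repeat share and body coverage was -0.67, -0.46, -0.67 and -0.46, and across all genes -0.20, -0.14, -0.14 and -0.18, as a description only.

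Within the 12 genes, the 7445 bases inside repeated words were covered at 14.2% in low digest dex and 38.0% in low digest mock, and at 36.6% in both high digest lists. Their 11521 single-copy bases were covered at 22.8% and 41.4% in the low digest dex and mock lists, and at 46.8% in the list labelled high digest dex and 59.2% for high digest mock. Repeated bases of these 12 genes were thus less covered in each list, but the single-copy bases of these genes were also less covered than the 43716 single-copy bases of the other 32 genes, which had 41.9%, 57.6%, 62.8% and 71.6%. In those 32 genes the 508 repeated bases had 29.5%, 69.9%, 63.8% and 80.5%, and so were the more covered ones in all lists but low digest dex. A called nucleosome needs fragments over 140 bp and so also depends on flanking sequence. The part of read placement in the low values of the LHCB and RBCS families was not tested further.

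**Figure D4:**
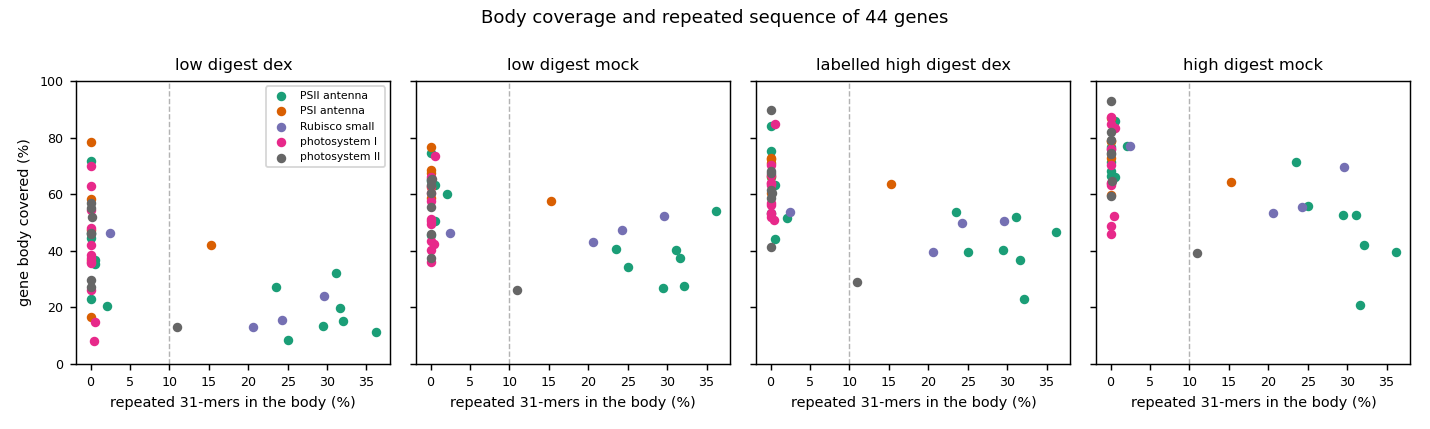
Body coverage (%) of the 44 genes against the share of their 31-base words that occur elsewhere in the genome (%), 1 panel per list, colored by family, with the 10% limit dashed. Genes right of the line are lower as a group, with medians of 15.3% to 52.8%, against 43.1% to 74.5% left of it.

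In the Lhcb1 group on chromosome 1, CAB2 had body coverage of 32.0% in low digest dex and 40.3% in low digest mock, then 51.8% in the list labelled high digest dex and 52.5% for high digest mock, and CAB3 had 8.26%, 34.3%, 39.5% and 55.8%. LHB1B1 on chromosome 2, nearest the LHCB median, had 27.1%, 40.4%, 53.7% and 71.4%. In the RBCS cluster on chromosome 5, RBCS1B had 13.0%, 43.1%, 39.4% and 53.2%, RBCS2B had 24.0%, 52.4%, 50.6% and 69.5%, and RBCS3B had 15.3%, 47.2%, 49.8% and 55.3%. All 3 were lowest in low digest dex. RBCS1A, outside the cluster and with 2.5% repeated words, had 46.1%, 46.4%, 53.6% and 77.1%, so that its low digest dex and mock values were nearly equal.

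The remaining family medians are marked by Lhca5, PSAO and PSBO1. Lhca5, which like Lhca6 links photosystem I to the NDH complex, had 36.6%, 76.8%, 71.0% and 78.7%. PSAO, a subunit that takes part in the docking of light-harvesting complex II, had 48.1%, 49.5%, 52.9% and 75.9%. The other LHCB genes ranged over the 4 lists from 11.3% (LHCB2.2 in low digest dex) to 76.7% (LHCB6 in high digest mock), with LHCB2.3 (AT3G27690) between 35.4% and 66.0% and LHCB5 (AT4G10340), the minor antenna protein CP26, between 22.8% and 71.2%. LHCA1 (AT3G54890), an antenna protein of photosystem I, had 58.3%, 58.6%, 66.2% and 78.8%. The other photosystem I genes ranged from 8.02% (PSAD-1 (AT4G02770) in low digest dex) to 87.2% (PSAG (AT1G55670) in high digest mock). The other photosystem II genes, PSBO2, PSBP-1, PSBR, PSBY and PSBW (AT2G30570), ranged from 29.6% to 79.2%.

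Coding sequence was more covered than the rest of the gene, here as in other genes. Over the 44 genes 46.2% of coding bases were covered in low digest dex, 72.4% in low digest mock, 73.7% in the list labelled high digest dex and 73.5% for high digest mock. Their introns had 23.7%, 32.6%, 32.3% and 48.5%, and their untranslated exons 25.1%, 34.1%, 45.1% and 62.1%. In the 19074 genes of that length range coding bases had 47.5%, 67.3%, 74.4% and 78.0%, introns 24.6%, 27.5%, 38.2% and 57.0%, and untranslated exons 25.4%, 29.0%, 37.0% and 55.2%. Untranslated exons of the photosynthesis genes were the more covered in 3 of the 4 lists, and their introns the less covered in both high digest lists.

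Dex and mock were compared to ask whether 1 h of nuclear LEAFY went with a change at genes outside the floral program. Body coverage was lower with dex in 39 of 44 genes at the low digest and in 34 at the high digest, or 88.6% and 77.3%, beside 79.2% and 81.6% of all genes. The median differences were -14.3 and -10.1 percentage points, against -11.4 and -9.9 points for all genes. At the low digest 16 of the 44 were lower by at least 20 points, beside 24.6% of all genes, and 0 were higher by as much, beside 1.05%. At the high digest 8 were lower, beside 17.4% of all genes, and 0 higher, beside 0.758%. With equal list sizes the medians were -4.78 and 0 points for the 44 genes and -0.19 and 0 points for all genes, so that the size of the difference depended on list length. The counts then were 6 genes at least 20 points lower and 1 higher at the low digest, beside 7.06% and 4.24% of all genes, and 3 lower and 8 higher at the high digest, beside 5.15% and 8.27%. The balance at the high digest thus turned with list length. At the low digest the dex replicates were pooled before calling, so that pooling and treatment cannot be told apart there.

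The 4 genes with the largest difference of the same sign at both digests were LHCB4.2, PSBO1, LHCB3 and RBCS2B, all lower with dex. LHCB4.2 had body coverage of 20.5% in low digest dex and 59.98% in low digest mock, and of 51.6% in the list labelled high digest dex and 77.2% for high digest mock. PSBO1, the main manganese-stabilizing protein of the oxygen-evolving complex, had 27.0% and 55.6% in the low digest dex and mock lists and 58.7% and 82.0% in the high digest ones. LHCB3, a protein of the trimeric antenna, had 36.8% and 63.2%, then 63.2% and 86.0%. RBCS2B differed by -28.3 and -18.9 points. The mock lists are the longer ones at both digests, and all of these differences follow that order.

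Large differences at 1 digest were often not seen at the other. PSAD-2 (AT1G03130), at the ferredoxin side of photosystem I, differed by -58.7 points at the low digest (14.6% in dex, 73.3% in mock) and by 1.57 points at the high digest (84.8% in dex, 83.3% in mock). LHCA4 (AT3G47470), an antenna protein of photosystem I, differed by -51.0 and 0 points. PSAH2 had the largest positive difference at the low digest, 18.4 points, and differed by -9.99 points at the high digest. These genes were picked here after their values were seen.

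**Figure D5:**
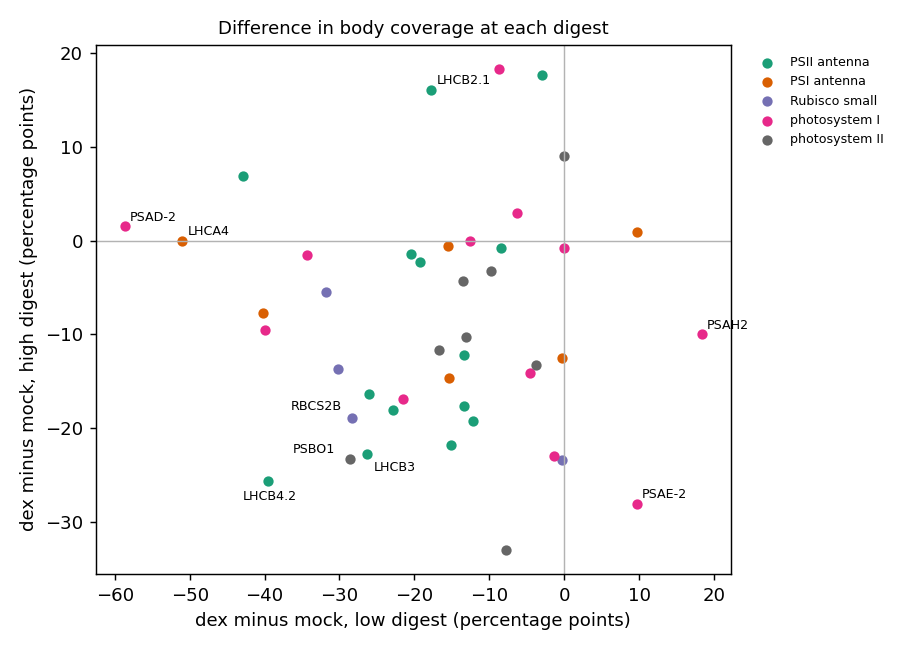
Difference in body coverage, dex minus mock, in percentage points for each of the 44 genes, with the low digest on the horizontal and the high digest on the vertical axis, colored by family. Most points lie in the lower left, where dex is lower at both digests, and PSAD-2 and LHCA4 lie far left near 0 on the vertical axis.

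The low digest lists gave less coverage than the high digest ones and are shorter. Body coverage was lower in 41 of 44 genes with dex (93.2%) and in 38 with mock (86.4%), beside 89.4% and 90.03% of all genes. The medians were -22.2 and -13.7 points, against -19.6 and -18.0 points for all genes. At least 20 points lower were 26 genes with dex, beside 48.8% of all genes, and 16 with mock, beside 43.5%. None of the 44 was higher by as much, beside 0.463% and 0.412% of all genes. With equal list sizes the medians were -7.76 points with dex and 7.55 points with mock for the 44 genes, and -3.20 and -0.53 points for all genes, so that the direction with mock depends on list length. The counts then were 8 genes at least 20 points lower and 4 higher with dex, beside 12.6% and 4.10% of all genes, and 2 lower and 8 higher with mock, beside 9.65% and 7.54%.

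The windows of the 44 genes held 237 nucleosomes in low digest dex, 333 in low digest mock, 367 in the list labelled high digest dex and 447 for high digest mock. Of the low digest dex nucleosomes 47.7% (Wilson 95% interval 41.4 to 54.0) had a center within 20 bp in low digest mock, against 43.8% over all gene windows. Of the nucleosomes labelled high digest dex 58.3% (53.2 to 63.2) were found in high digest mock, against 55.2%, and 31.6% (27.1 to 36.5) in low digest dex, against 28.6%. Between the mock lists 51.4% (46.0 to 56.7) of the low digest nucleosomes were found after the high digest, against 50.9%. Each of these backgrounds lay inside the interval of the photosynthesis genes, which covers counting error over nucleosomes only and is no test.

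Occupancy was ranked within each list. The median percentile of the nucleosomes in the 44 windows was 51.9 in low digest dex, 54.5 in low digest mock, 54.6 in the list labelled high digest dex and 53.9 for high digest mock, against 51.9, 50.5, 54.0 and 54.7 over all gene windows. Those in the upper 10% of their list made up 14.8%, 12.3%, 16.9% and 15.2%, against 9.08%, 9.23%, 11.2% and 11.3%. Photosynthesis genes thus held more of the highest nucleosomes in each list while their medians lay near those of other genes, with no test of either.

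Promoter elements known for these genes were looked up on both strands of the 500 bp upstream. The G-box CACGTG was present in 8 of 44 promoters (18.2%), against 9.35% of all promoters, and the I-box GATAAG in 12 (27.3%), against 22.4%. The LEAFY core motif CCANTGG was present in 4 (9.09%), against 6.06%. Of the 9 G-box sites 5, 6, 7 and 6 had their center covered in the 4 lists, beside 60.8%, 67.0%, 60.8% and 63.3% of such sites in all promoters. G-boxes of PSAH2 at -65 and -10 bp, of PSAE-2 at -61 bp and of LHCA4 at -85 bp were covered in every list, and that of LHCB6 at -121 bp in none. Of the 4 LEAFY core motifs, that of Lhca6 at -369 bp was covered in all lists, that of PSBO2 at -42 bp in low digest dex alone, that of LHCB4.1 at -312 bp in high digest mock alone, and that of PSAH-1 (AT3G16140) at -123 bp in low digest mock and the list labelled high digest dex. A match of letters is not a bound site.

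Other genes of the pathway differed by list of genes. Of 9 genes for electron carriers and ATP synthase 5, 6, 7 and 7 were above the like-length median of body coverage in the 4 lists. Over all genes the share above was 50%, 50%, 49.9% and 50%. The counts were 6, 7, 6 and 6 of 8 for carbon fixation and 6, 10, 10 and 6 of 11 for chlorophyll synthesis. A covered start was present in 5, 4, 5 and 5 of the 9, in 1, 1, 1 and 4 of the 8 and in 4, 7, 8 and 5 of the 11. Over all genes it was present in 27.3%, 32.7%, 32.8% and 40.1%. Of the regulators GLK1, GLK2 and HY5, 1, 1, 1 and 0 were above. The 500 bp promoter of GLK2 was covered at 0% in all lists, whereas that of HY5, a light-signaling factor, had 72% in low digest dex, 62% in low digest mock, 58% in the list labelled high digest dex and 60.4% for high digest mock. A further 22 genes were picked by their annotated product name as cytosolic ribosomal proteins, and may be only part of that family. Their use was not measured here. For the body 10, 13, 11 and 11 of them were above. A covered start was present in 11, 11, 12 and 8 of these 22. In all lists but high digest mock that was near the share of the photosynthesis genes. Higher start coverage than over all genes was thus not particular to the photosynthesis genes in those lists. This concerns the start base only. For the 500 bp promoter, the median differences of the 22 genes from like-length genes were -7.9, -4.1, -7.4 and -17.55 points. Those of the 44 photosynthesis genes were 5.35, 6.8, 12.8 and 6 points.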

How the data were processed

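MNase libraries were paired-end sequenced. Per the labels and the methods of the study, mapping by the authors was to TAIR10 with Bowtie 1.2.2, keeping read pairs with a single best position (Picard 2.9.4 is also named), and called nucleosomes with DANPOS. The 2 low digest dex replicates were pooled first, and how those of other groups were joined is not stated further. The deposited lists give intervals of 140 bp with an occupancy signal, the coverage height at the summit, as the authors' caller wrote it. It was used only to rank within a list, since scaling between lists is not stated.

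Starts were read as counting from 0. Genes and sequence came from TAIR10.1 (RefSeq), whose nuclear sequence is that of TAIR10. Symbols are those of RefSeq. Coverage is the share of bases inside listed intervals, and like-length genes are those within 10% of a gene's length (2 genes had none). A change of 20 percentage points was called. Repeats were 31-base words found more than once on the nuclear chromosomes, either strand. The plants were Landsberg erecta and the reference Columbia, and differences between these genomes were not examined. Alternatives were equal list sizes, the upper 50% by occupancy, intervals trimmed to 100 bp, other length limits, like GC (within 2 points), other promoter lengths, centers within 10 or 40 bp, and leaving out repeated or tandem genes. Intervals are Wilson or order-statistic 95% intervals over genes or nucleosomes. Depth per list is unknown.

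Values in every list are given for the tandem Lhcb1 and RBCS genes, the 4 highest and 4 lowest by mean body or promoter coverage, the 4 with the largest dex minus mock difference of the same sign at both digests, and the gene nearest each family's median. Members, lists and rules were chosen with earlier results of these data known. Scripts used Python 3.11.15, numpy 2.4.6, scipy 1.17.1 and Biopython 1.88, and coverage was tested on simulated data.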

Additional observations from a re-analysis of the deposited data

Results flagged for a closer look

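LHCB2.1 was the only 1 of the 44 genes whose body coverage differed between dex and mock by at least 10 percentage points in opposite directions at both digests, by -17.8 points at the low digest and 16.1 points at the high digest. With 1 list per condition the difference was not tested. The pattern was seen in 2.27% of the 44 genes and 4.35% of all genes, so that it was no more frequent here than in the background and is given as a value only. Repeated 31-base words make up 31.7% of the LHCB2.1 body, and their part in this was not tested.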

How the results depend on the processing

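Of 136 recomputed values, 94 stayed within the interval of the value reported, 41 moved out of it and 1 moved out with its sign turned. A change of sign inside the interval counts as staying. The body difference from like-length genes changed sign in that way in every list. It went from 3.57 to -1.12 points in low digest mock with like GC. In high digest mock it went from -1.42 to 5.13 points without repeated genes. No paired analysis was possible because each condition has 1 list.

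With equal list sizes, the median low minus high digest difference with mock changed to 7.55 points, and it was -7.76 with dex. Dex minus mock was -4.78 at the low and 0 at the high digest. The promoter difference from like-length genes was 21.5 points in the list labelled high digest dex and 21.8 for high digest mock. The covered starts were 27.3% and 22.7%, against 11.9% of all genes in each. These lists were shortened most. In the upper 50% by occupancy, the promoter difference was 28 points in low digest dex, 25.3 in low digest mock, 0 in the list labelled high digest dex and 21.9 for high digest mock, covered starts were 34.1% in low digest mock, 13.6% in the list labelled high digest dex and 22.7% for high digest mock, dex minus mock at the high digest was 0, and low minus high digest was -17.0 with dex and -7.36 with mock. In low digest dex the 50% cut fell among nucleosomes of equal occupancy, and ties were kept in order of chromosome and position. Its upper 50% is thus not a cut by occupancy alone. The cause of these changes was not tested. At full list length the 250 bp promoter gave differences of 30.2, 31.3 and 30 points in all lists but high digest mock. Intervals of 100 bp gave 38.6% covered starts in the list labelled high digest dex. For covered starts in the upper 50% and with intervals of 100 bp, the share of all genes is not given here. Those shares alone thus do not show a change against other genes.

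Recovery by construction moved with the distance allowed. Within 10 bp and 40 bp, low digest dex was found in low digest mock at 31.2% and 71.7% and in the list labelled high digest dex at 34.6% and 71.3%. Low digest mock was found in low digest dex at 21.9% and 50.8% and in high digest mock at 38.1% and 73.9%. Nucleosomes of the list labelled high digest dex were found in high digest mock at 45.8% and 74.9% and in low digest dex at 22.6% and 46.3%. High digest mock was found in the list labelled high digest dex at 37.8% and 62.2% and in low digest mock at 28.9% and 55.7%. With equal list sizes, low digest dex was found in the list labelled high digest dex at 36.7%, low digest mock in low digest dex at 38.6% and in high digest mock at 42.1%, the list labelled high digest dex in high digest mock at 50%, and high digest mock in low digest mock at 45.9%. Body differences from like-length genes, innermost starts and occupancy ranks stayed within their intervals. The unknown depth limits every difference between lists.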
